A study of Homo sapiens with 4 samples.

Results

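Matrix metalloproteinases (MMPs), ADAMs, ADAMTS proteases and their tissue inhibitors (TIMPs) were examined in BICR10 cells with and without silencing of YEATS2, a reader of acylated histones. Members were the genes of the count files whose symbol is MMP, ADAM or ADAMTS followed by a number, or TIMP1 to TIMP4, together with RECK and BSG. The rule used names and no measured value, and it found 71 of 60623 genes: 24 MMPs, 22 ADAMs, 19 ADAMTSs, 4 TIMPs, RECK and BSG. The annotation listed 68 of them as protein coding and 3 (ADAM5, ADAM6 and MMP23A) as pseudogenes.

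MMPs, ADAMs and ADAMTSs are zinc-dependent proteases of the metzincin clan. Most are made as inactive precursors, which furin-like convertases, plasmin or other MMPs activate, and TIMPs then block the active site. MMPs cut collagens and other matrix proteins, ADAMs release growth factors and receptors from the cell surface, and ADAMTSs trim procollagens and proteoglycans. In carcinomas these proteases are known for opening the matrix to invading cells, and much of the activity in a tumor can come from stromal fibroblasts. A transcript level says nothing of how much enzyme was activated or inhibited.

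RNA was measured in 4 libraries, 2 of cells with the control hairpin (shControl) and 2 of cells with a hairpin against YEATS2 (shYEATS2). All 4 were BICR10, a line labelled as head and neck cancer, transduced with lentivirus and, in the study's methods, selected with puromycin. The methods name 2 hairpins against YEATS2 and the labels do not say which of them a shYEATS2 library carried. The study says in general terms that its replicates are biological, but the labels do not tie these libraries to separate cultures, so p-values measure the spread between these samples, which may be technical.

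The libraries held from 11334133 to 47297970 counts on genes, with both shYEATS2 libraries the shallower ones, so depth and condition cannot be told apart. YEATS2 itself was at 66.1 and 66.7 CPM (the usual unit of counts scaled to a common library total) in shControl and at 29.2 and 29.1 CPM in shYEATS2, a log2 fold change of -1.19 ± 0.08 (SE). Head and neck cancers are mostly squamous carcinomas, yet 4 of 14 epithelial marker genes (TP63, KRT19, ESRP1 and GRHL2) stayed below 1 CPM in every library. The list summed to between 405 and 411 CPM in shControl and to between 225 and 245 CPM in shYEATS2, most of it KRT8 (269 and 264 CPM in shControl) and KRT18 (110 and 111 CPM), both keratins of simple epithelia named after their values were seen. The 14 fibroblast markers summed to between 7584 and 7674 CPM in shControl and to between 2377 and 2512 CPM in shYEATS2. Most of the shControl sum was COL1A1 (2845 and 2747 CPM), COL1A2 (2623 and 2609 CPM) and COL3A1 (1043 and 1026 CPM). PDGFRA (3 and 2.46 CPM) and ACTA2 (2.07 and 1.83 CPM) were low in shControl, and THY1 was below 1 CPM in every library. These genes were named after their values were seen. In bulk RNA, fewer cells of a type and less RNA per cell cannot be told apart.

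The regions just before the start of 6 members are shown because these genes cover the range of the results: MMP7 fell most among the named members, MMP10 lies near it and was almost silent, MMP14, TIMP4 and RECK fell, and ADAM17 rose. The sequences are from RefSeq (GRCh38.p14), run from 90 to 11 bases before its transcription start, and are written on the gene's strand. Capitals mark TGAGTCA, the letters of an AP-1 site, TATAAA, the letters of a TATA box, or GGGCGG, the letters of a GC box.
MMP7, chr11:102530758-102530837, minus strand: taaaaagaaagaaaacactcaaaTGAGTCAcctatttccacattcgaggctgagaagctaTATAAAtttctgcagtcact
MMP10, chr11:102780639-102780718, minus strand: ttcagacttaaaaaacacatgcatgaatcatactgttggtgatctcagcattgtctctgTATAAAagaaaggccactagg
MMP14, chr14:22836495-22836574, plus strand: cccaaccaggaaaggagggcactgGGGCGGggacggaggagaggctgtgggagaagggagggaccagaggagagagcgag
TIMP4, chr3:12158923-12159002, minus strand: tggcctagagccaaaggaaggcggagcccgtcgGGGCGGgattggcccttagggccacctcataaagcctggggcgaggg
RECK, chr9:36036823-36036902, plus strand: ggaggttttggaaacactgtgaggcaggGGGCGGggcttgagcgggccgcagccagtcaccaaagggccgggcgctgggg
ADAM17, chr2:9555841-9555920, minus strand: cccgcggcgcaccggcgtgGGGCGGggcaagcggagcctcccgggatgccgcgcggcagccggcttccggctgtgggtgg

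In the MMP7 region the AP-1 letters began 67 bases and the TATA letters 30 bases before the start, and the TATA letters of MMP10 began 31 bases before it. The GC box letters began 66 bases before the start of MMP14, 57 before that of TIMP4, 62 before that of RECK and 71 before that of ADAM17. They stood both before genes that fell and before a gene that rose. Promoters from 250 bases before to 50 bases after the start were found for 41 of the 71 members. The 30 without a promoter include MMP1, MMP2, MMP3, MMP9, MMP12, MMP13, MMP19 and MMP28, so the counts below do not cover them. Among the 41, TGAGTCA (either strand) was present in 1, MMP7, against 4.95% of 35116 promoters of the table. GGGCGG (either strand) was present in 28, against 45.0% of all promoters. TATAAA (gene strand only) was present in 7 (ADAM21, MMP7, MMP8, MMP10, MMP20, MMP21 and MMP26), against 7.33% of all promoters. A match describes letters and is no evidence that a factor binds there.

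Of the 71 members, 44 had enough counts to be tested and 27 did not. A test was a comparison of shYEATS2 with shControl in edgeR's quasi-likelihood model over 17058 genes, with p adjusted by the Benjamini-Hochberg method and a threshold of 0.05 for a call. In shYEATS2, 20 tested members (45.5%) fell and 6 (13.6%) rose, against a background of 23.6% of all tested genes lower and 22.6% higher. The other 18 did not pass the threshold. The median log2 fold change of the tested members was -0.27, against -0.01 for all tested genes, and it was -0.27 as well with ADAM33, which had no count in shYEATS2, set to its bound.

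Among the 44 tested members, 8 fell by at least 2-fold, against 3.7% of all tested genes, and 2 rose that far, against 5.99%. Of those 8, MMP11, MMP25 and ADAM33 passed the filter on low counts through their shControl libraries alone, so a difference was built into their being tested. The other 5 were MMP2, MMP7, MMP14, ADAMTS5 and ADAM23. Of the 44 tested members, 38 passed the filter in both conditions, and of these 17 fell and 6 rose. The same shares over all genes that passed in both conditions were not computed, so these counts have no background. Both shYEATS2 libraries lay below both controls in 26 of the 44 and above both in 10 of the 44. Over all tested genes the shares were 36.3% and 35.3%. With DESeq2, 43 members had an adjusted p, of which 17 fell and 5 rose, against 16.5% and 13.9% of all genes. The 4 calls that DESeq2 did not make were ADAM11, ADAM33, MMP11 and MMP25, all below a mean of 1 CPM, and these names were chosen after their values were seen. Each of these calls was also lost in edgeR without particular libraries. ADAM11 lost it without shControl 1 (1.01 on the log2 scale, adjusted p = 0.13) or shYEATS2 1 (0.71, adjusted p = 0.47), and MMP11 without shControl 2 (-1.57, adjusted p = 0.15) or shYEATS2 1 (-0.71, adjusted p = 0.49). MMP25 lost it when any library was left out, with adjusted p from 0.069 to 0.14 in edgeR and log2 fold changes from -2.67 to -1.48. ADAM33 fell under the filter when either shControl library was left out.

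**Figure D1:**
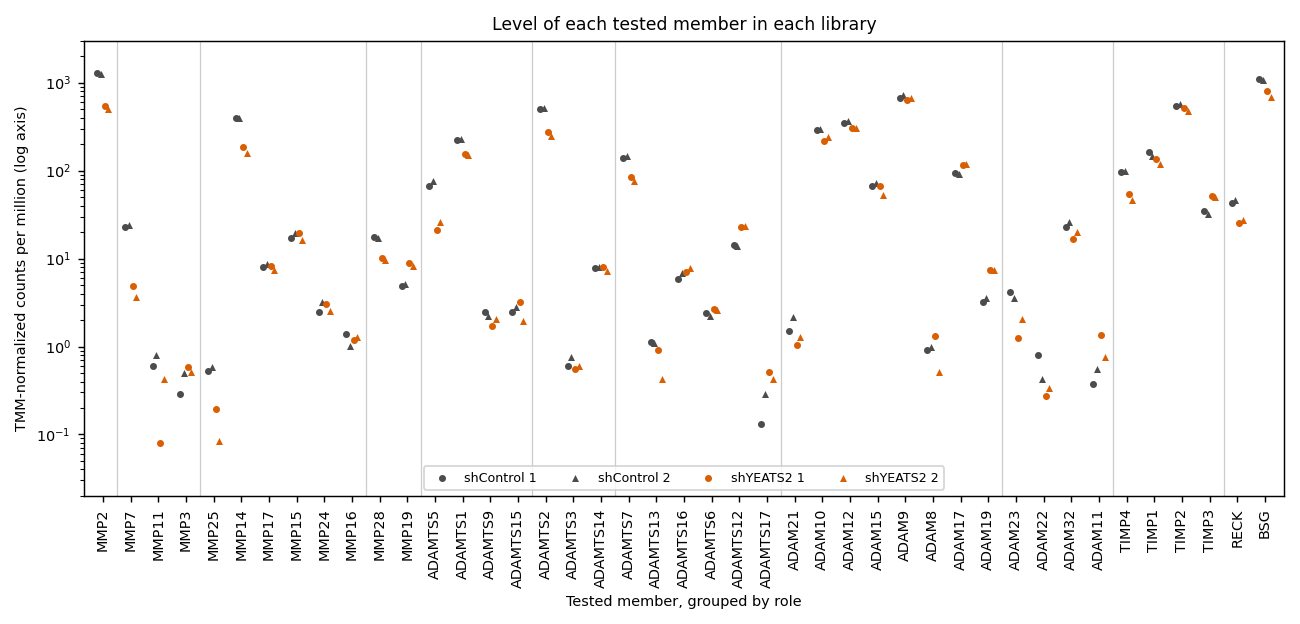
TMM-normalized CPM (log axis) of 43 tested members in each library, grouped by role with a vertical line between roles. Grey symbols are shControl and orange symbols are shYEATS2, and circles and triangles are libraries 1 and 2. ADAM33, at 0 in both shYEATS2 libraries, is left out. MMP2 lies between 499 and 1285 CPM, and MMP7 has the widest gap between the conditions among members above 1 CPM.

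Gelatinases digest denatured collagen and the collagen of basement membranes. MMP2, or gelatinase A (chr16:55389700-55506691), had the highest level per exon length of all members in shControl, at 271 CPM per kb of exon. It was at 1285 and 1266 CPM in the shControl libraries and at 546 and 499 CPM in the shYEATS2 libraries. The groups did not overlap, and both shYEATS2 libraries held less than either control. The log2 fold change was -1.29 ± 0.06 (SE, adjusted p = 5.6e-29 in edgeR), which left 41.0% of the control level. MMP9, the other gelatinase, had at most 4 counts in any library and was not tested.

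Membrane-type MMPs are anchored at the cell surface. MMP14 (chr14:22836560-22849041), which activates the MMP2 precursor in a complex with TIMP2 and also cuts fibrillar collagen, was at 400 and 394 CPM in shControl. In shYEATS2 it was at 187 and 159 CPM, below both controls, and the log2 fold change was -1.19 ± 0.06 (SE, adjusted p = 1.6e-23 in edgeR). All 6 membrane-type genes were tested, and MMP25 was the only other one called, at 24 and 22 counts in shControl and 5 and 1 in shYEATS2. Of its exon bases, 30.6% overlap MMP25-AS1 on the other strand. MMP15, MMP16, MMP17 and MMP24 were not called, and these were named after their values were seen. For MMP15 the log2 fold change was 0.00 with a 95% interval from -0.20 to 0.21, and for MMP17 it was -0.07 with an interval from -0.34 to 0.21. MMP16 and MMP24 were lower in level and had wider intervals, from -0.65 to 0.70 and from -0.43 to 0.47.

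Matrilysins and stromelysins cut a broad range of matrix and cell surface proteins. MMP7, or matrilysin (chr11:102520508-102530750), lacks the hemopexin domain of most MMPs and is known as an epithelial MMP. It was at 22.6 and 24.3 CPM in shControl and at 4.82 and 3.65 CPM in shYEATS2. Its log2 fold change of -2.41 ± 0.13 (SE, adjusted p = 1.4e-25 in edgeR) left 18.8% of the control level. MMP11, or stromelysin-3, fell from 27 and 30 counts to 2 and 5. MMP3, or stromelysin-1, was at 13 and 19 counts in shControl and 15 and 6 in shYEATS2 and was not called (log2 fold change 0.53 ± 0.53, SE, adjusted p = 0.44 in edgeR).

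The MMP cluster on chromosome 11, from MMP7 to MMP13 (chr11:102520508-102955732), was otherwise close to silent. The interstitial collagenases MMP1, MMP8 and MMP13, which open the triple helix of fibrillar collagen, had at most 2 counts in any library. MMP10, stromelysin-2, had 1 count in all 4 libraries together. MMP12, MMP20 and MMP27 were not tested, and MMP20 reached at most 4 counts. At this depth no change of these genes was detectable.

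The remaining MMPs with enough counts moved in opposite directions. MMP28, or epilysin, was at 17.7 and 17.3 CPM in shControl and at 10.1 and 9.67 CPM in shYEATS2, and fell by 0.82 on the log2 scale (SE 0.11, adjusted p = 7.0e-09 in edgeR). MMP19, which cuts basement membrane components, was the only MMP that rose, from 4.89 and 5.16 CPM to 8.84 and 8.32 CPM, with a log2 fold change of 0.78 ± 0.15 (SE, adjusted p = 1.0e-05 in edgeR). Of the exon bases of MMP19, 17.6% overlap TMEM198B on the other strand, and reads of the 2 genes can be told apart only where the counting used strand, which is not given in the sources used here. Across the family, 6 of 12 tested MMPs (50%) fell and 1 (8.33%) rose, against 23.6% and 22.6% of all tested genes. The 6 include MMP11 and MMP25, and without them 4 fell.

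**Figure D2:**
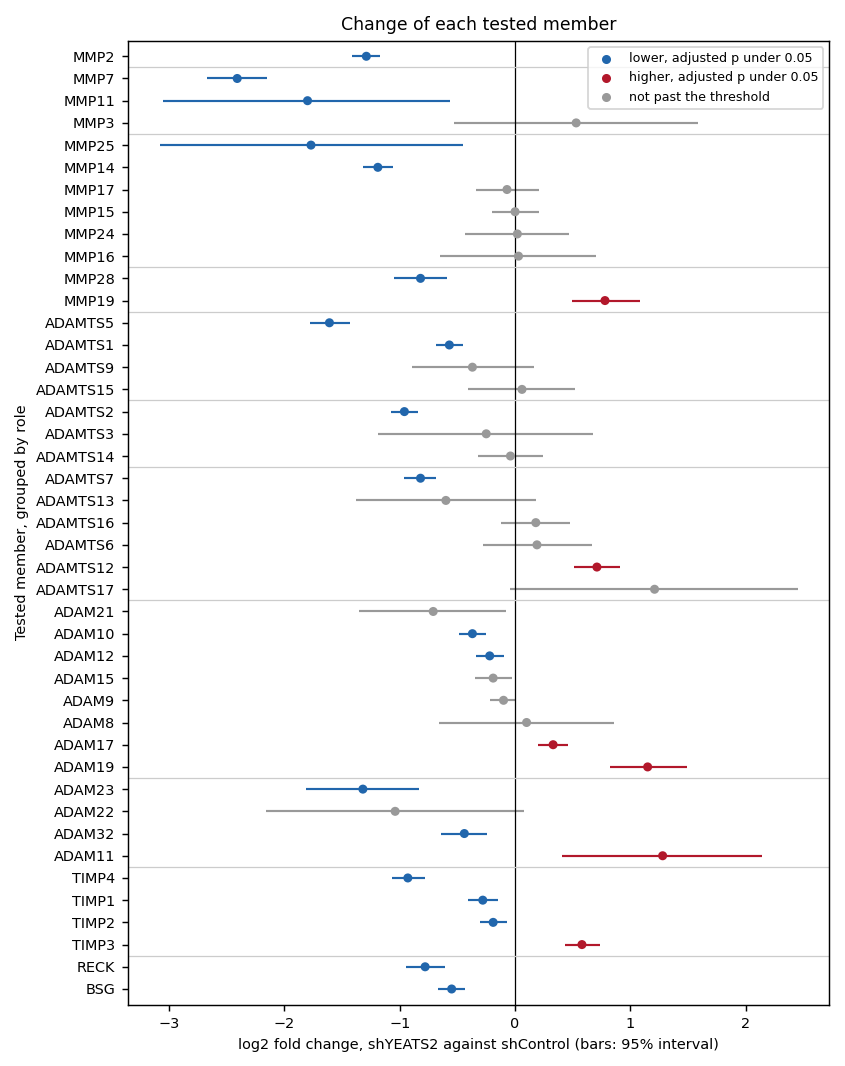
log2 fold change of shYEATS2 against shControl for 43 tested members, grouped by role, with 95% intervals from edgeR as bars. Blue points fell, red points rose and grey points did not pass an adjusted p of 0.05. ADAM33 is left out because it had no count in shYEATS2. MMP7 at -2.41 and ADAMTS5 at -1.61 lie far to the left with narrow bars, and ADAM19 at 1.15 is the member above 1 CPM that rose most.

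ADAMTS proteases are secreted and bind the matrix. ADAMTS5, an aggrecanase that also cuts versican, was at 66.3 and 76.3 CPM in shControl and at 21.4 and 26.3 CPM in shYEATS2. The groups were far apart, and the log2 fold change was -1.61 ± 0.09 (SE, adjusted p = 3.6e-21 in edgeR). ADAMTS1, which shares versican as a substrate and lies beside ADAMTS5 on chromosome 21, fell less, from 225 and 231 CPM to 156 and 151 CPM (log2 fold change -0.57 ± 0.06, SE). ADAMTS9 and ADAMTS15 were tested and not called, and ADAMTS4, ADAMTS8 and ADAMTS20 had too few counts.

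Procollagen N-propeptidases remove the amino-terminal propeptide from fibrillar procollagens. ADAMTS2, which acts on types I to III, was at 499 and 516 CPM in shControl and at 272 and 249 CPM in shYEATS2. It fell to 51.4% of the control level (log2 fold change -0.96 ± 0.06, SE, adjusted p = 2.7e-22 in edgeR). Its relatives ADAMTS3 and ADAMTS14 were not called, and the interval of ADAMTS14 ran from -0.32 to 0.24. Per length, ADAMTS2 made up between 95.2% and 97.4% of the 3 genes' summed level.

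Among the other ADAMTSs, ADAMTS7 and ADAMTS12 both cut cartilage oligomeric matrix protein and changed in opposite directions. ADAMTS7 fell from 138 and 146 CPM to 84.0 and 75.3 CPM, a log2 fold change of -0.82 ± 0.07 (SE). ADAMTS7 has near-identical pseudogene copies that can share its reads, so its level is uncertain. ADAMTS12 rose from 14.3 and 13.9 CPM to 23.0 and 23.2 CPM, a log2 fold change of 0.71 ± 0.10 (SE, adjusted p = 1.0e-08 in edgeR). Of 13 tested ADAMTSs, 4 (30.8%) fell and 1 (7.69%) rose. The share that fell is near the 23.6% of all tested genes.

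ADAMs are transmembrane proteins, and those with a complete zinc-binding motif act as sheddases. ADAM17 releases TNF and most ligands of the EGF receptor. It was at 94.9 and 91.4 CPM in shControl and at 116 and 118 CPM in shYEATS2, above both controls, with a log2 fold change of 0.33 ± 0.06 (SE, adjusted p = 1.9e-05 in edgeR). Of its exon bases, 11.7% overlap genes on the other strand. ADAM10, which cuts Notch receptors, N-cadherin and betacellulin, was at 290 and 298 CPM in shControl and at 216 and 239 CPM in shYEATS2. Its log2 fold change was -0.37 ± 0.06 (SE, adjusted p = 4.3e-07 in edgeR), opposite in sign to that of ADAM17.

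The meltrins ADAM12 and ADAM19, which can shed heparin-binding EGF and neuregulins, had log2 fold changes of opposite sign. ADAM12 was at 345 and 362 CPM in shControl and at 303 and 304 CPM in shYEATS2, a log2 fold change of -0.22 ± 0.06 (SE, adjusted p = 1.2e-03 in edgeR). This call was lost under scaling by library totals alone (-0.09, adjusted p = 0.20 in edgeR) and without shControl 2 (-0.19, adjusted p = 0.066 in edgeR). ADAM19 was far less abundant and rose from 3.17 and 3.52 CPM to 7.46 and 7.38 CPM, a log2 fold change of 1.15 ± 0.17 (SE, adjusted p = 3.3e-08 in edgeR). ADAM9, named after its values were seen as the most abundant ADAM per length, was not called (log2 fold change -0.10, 95% interval from -0.22 to 0.01). ADAM33 had 16 counts in each shControl library and 0 in both shYEATS2 libraries. Against a floor of 3 counts over the group, this was at least 4.76-fold lower.

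Some ADAMs lack a complete zinc-binding motif and act in adhesion. ADAM23, a ligand of LGI1 and integrins in neural tissue, was at 4.12 and 3.55 CPM in shControl and at 1.26 and 2.04 CPM in shYEATS2 (log2 fold change -1.32 ± 0.25, SE, adjusted p = 7.2e-06 in edgeR). ADAM32, a family member best known from testis, fell from 23.1 and 26.2 CPM to 16.8 and 20.0 CPM (log2 fold change -0.44 ± 0.10, SE). ADAM11 rose from 17 and 21 counts to 34 and 9, which corresponds to 0.375 and 0.556 CPM against 1.34 and 0.764 CPM. ADAM22, at 36 and 16 counts in shControl and 7 and 4 in shYEATS2, was not called (log2 fold change -1.04 ± 0.56, SE, adjusted p = 0.13 in edgeR). ADAM2, ADAM7, ADAM18 and ADAM29 had at most 3 counts in a library. No count at all was found for 7 members of any family: MMP26, ADAM2, ADAM6, ADAM7, ADAM29, ADAM30 and ADAMTS19. Of 13 tested ADAMs, 5 (38.5%, ADAM33 included) fell and 3 (23.1%, ADAM11 included) rose, and the latter share is close to the 22.6% of all tested genes.

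TIMPs bind active MMPs one to one, and all 4 were called. TIMP4 (chr3:12153068-12158912) fell most, from 96.2 and 98.4 CPM in shControl to 54.9 and 46.3 CPM in shYEATS2, a log2 fold change of -0.93 ± 0.07 (SE, adjusted p = 1.5e-17 in edgeR). It lies within SYN2, on the opposite strand, and 14.2% of its exon bases overlap exons of that gene. TIMP3, which binds the matrix and inhibits ADAM17 and aggrecanases as well as MMPs, rose from 34.8 and 32.5 CPM to 51.0 and 49.8 CPM (log2 fold change 0.58 ± 0.08, SE, adjusted p = 2.8e-09 in edgeR).

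TIMP1 and TIMP2, the TIMPs with the highest levels per length, had smaller log2 fold changes than TIMP4. TIMP1 was at 163 and 146 CPM in shControl and at 134 and 120 CPM in shYEATS2, a log2 fold change of -0.28 ± 0.07 (SE, adjusted p = 3.3e-04 in edgeR). TIMP2, the partner of MMP14 in MMP2 activation, was at 549 and 571 CPM in shControl and at 510 and 473 CPM in shYEATS2 (log2 fold change -0.19 ± 0.06, SE, adjusted p = 6.2e-03 in edgeR). The calls of TIMP1 and TIMP2 were lost when libraries were scaled by their totals alone and when 1 of the control libraries was left out. Without shControl 1, TIMP1 stood at -0.20 (adjusted p = 0.085 in edgeR), and without shControl 2, TIMP2 stood at -0.17 (adjusted p = 0.12 in edgeR).

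RECK is a membrane-anchored inhibitor of MMP2, MMP9 and MMP14, and BSG, or basigin, is a surface glycoprotein known for inducing MMPs in neighboring fibroblasts. RECK was at 43.3 and 46.2 CPM in shControl and at 25.1 and 27.3 CPM in shYEATS2, a log2 fold change of -0.78 ± 0.08 (SE, adjusted p = 3.3e-12 in edgeR). BSG fell from 1097 and 1087 CPM to 796 and 696 CPM, a log2 fold change of -0.55 ± 0.06 (SE, adjusted p = 8.4e-12 in edgeR). In both genes the 2 conditions did not overlap.

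Levels were compared between members only per length, as CPM per kb of merged exons. In shControl the order was led by MMP2 (271), BSG (247), TIMP1 (107), TIMP2 (90.2), MMP14 (85.9), TIMP4 (81.5) and ADAMTS2 (56.6). In shYEATS2 BSG came before MMP2, at 169 and 111 CPM per kb, and MMP14 stood at 37.5 CPM per kb, below TIMP4 at 42.4.

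Summed over the family, MMPs were at 383 and 379 CPM per kb in the shControl libraries and at 172 and 154 CPM per kb in the shYEATS2 libraries, which is 42.7% of the control level. MMP2 made up between 67.6% and 71.3% of this sum. The ADAMTS sum was at 116 and 121 CPM per kb in shControl and at 71.2 and 67.0 in shYEATS2 (58.2%), and the ADAM sum at 112 and 117 against 101 and 103 (89.1%). TIMPs summed to 289 and 282 CPM per kb in shControl and to 232 and 208 in shYEATS2 (77.1%). Under TMM scaling all 4 sums were lower in both shYEATS2 libraries, that of the MMPs by the largest factor. The sums were not computed under other scalings. With library totals alone, the fold change of ADAM9, the largest part of the ADAM sum, changed sign.

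Within a library, the ratio of summed MMP to summed TIMP level does not depend on how libraries are scaled. It was 1.33 and 1.34 in shControl and 0.741 and 0.738 in shYEATS2, so that MMP transcripts outnumbered TIMP transcripts per length in both control libraries and in neither shYEATS2 library. With CPM not divided by length it was 2.09 and 2.05 against 1.05 and 1.03, above 1 in all 4 libraries. The shYEATS2 ratio was 0.554 of the control ratio, and 0.608 with MMP2 left out of the sum. With 2 libraries a group, the smallest two-sided p that an exact permutation test can reach is 0.333, and no test was run on these sums.

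**Figure D3:**
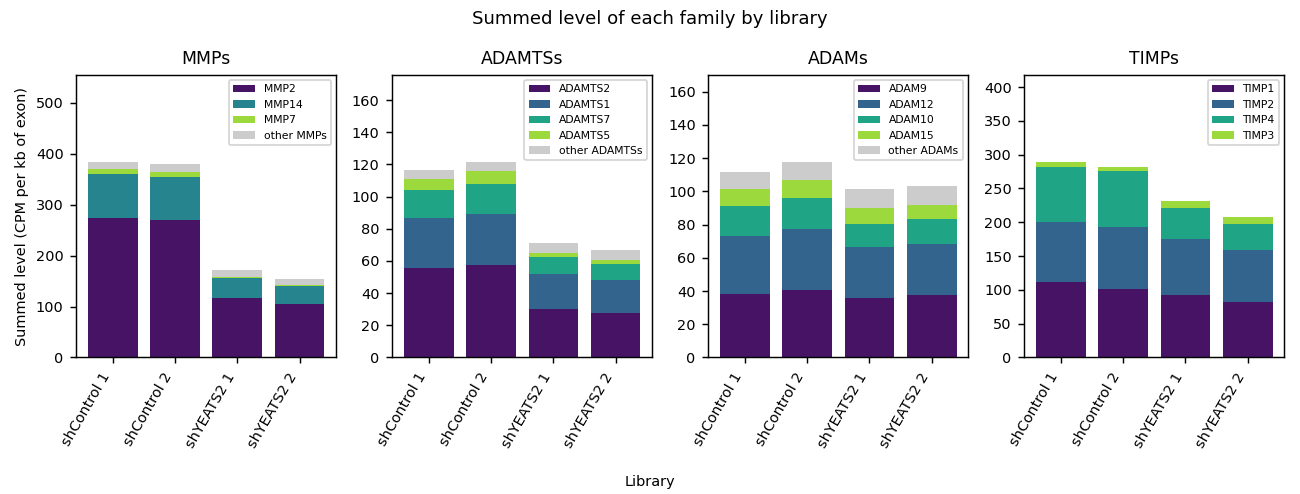
Summed level of the MMPs, ADAMTSs, ADAMs and TIMPs in each library, in CPM per kb of exon, stacked by the most abundant genes of each family (other genes in grey); each panel has its own axis from 0. The MMP bars fall from 383 and 379 to 172 and 154, with MMP2 the largest block in every library, and the ADAM bars differ least.

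Genes that act on the proteases were described from written lists. Among called genes of these lists and the marker lists, LRP2, TSPAN33, CDH1, TEK, KRT14 and CSF1R did not pass the filter in both conditions. A difference was thus built into their being tested, and these names were chosen after their values were seen. Of the activators of pro-proteases, 8 of 17 were tested, of which 5 fell and 2 rose, against 23.6% and 22.6% of all tested genes. The same background applies to every list below, and many of the lists are short. PCSK5 and FURIN, convertases that remove propeptides, fell by 1.29 and 0.77 on the log2 scale. PLAU, the urokinase that turns plasminogen into plasmin, rose from 1.26 and 1.22 CPM to 11.5 and 9.59 CPM (log2 fold change 3.11 ± 0.19, SE). Of 11 tested genes for other inhibitors and clearance receptors, 6 fell and 2 rose: SERPINE2, an inhibitor of urokinase and thrombin, rose by 1.79, whereas the inhibitor TFPI2 fell by 1.31 and the ADAMTS-related PAPLN by 1.35.

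Of the ADAMTS-like proteins, which resemble ADAMTSs but lack the protease domain, 3 of 4 tested genes fell and 1 rose. These were ADAMTSL5 at -0.48 and THSD4, which promotes fibrillin assembly, at 1.12, among those past 5 CPM. The iRhoms and partners of ADAM17, which carry it to the surface and switch it on, had 5 of 7 genes lower and 1 higher. RHBDF1 (iRhom1) was at -0.40, its partner FRMD8 at -0.36 and the kinase MAPK3 at -0.51. Tetraspanins that guide ADAM10 had 0 of 6 genes lower and 2 higher, TSPAN5 at 0.33 and TSPAN33. TSPAN33 had 1 and 0 counts in shControl and 17 and 7 in shYEATS2, so it entered the test through shYEATS2 alone.

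Substrates were written as a list of proteins shed by ADAMs and a list of matrix proteins. The lists are not a split by protease, as MMPs also cut cell surface proteins. Of all tested genes, 23.6% fell and 22.6% rose. Of 24 tested proteins shed by ADAMs, 7 fell and 14 rose. Their median log2 fold change was 0.26, against -0.01 over all tested genes. The EGF-family ligands HBEGF, NRG1 and TGFA rose by 1.53, 1.33 and 1.09. HBEGF was at 3.09 and 3.07 CPM in shControl and at 8.57 and 9.33 CPM in shYEATS2. Of 18 tested matrix substrates, 10 fell and 2 rose, with a median of -0.43. The fibrillar collagen genes COL3A1 and COL1A2 were at -2.14 and -1.67, and DCN, which encodes the small proteoglycan decorin, was at -1.94. COL3A1 fell from 1043 and 1026 CPM to 242 and 227 CPM.

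Transcription factors known to bind MMP promoters were all tested, and 5 of 20 fell while 8 rose, against 23.6% and 22.6% of all tested genes. The share that fell is near that of all tested genes. The ETS factors ETV4 and ETV5 rose by 1.64 and 1.60, and TWIST1 fell by 0.83 on the log2 scale. Of 6 genes for invadopodia, the actin-rich protrusions that carry MMP14, 2 fell and 2 rose: FSCN1 was at -0.87, CTTN at -0.32 and WASL at 0.40.

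**Figure D4:**
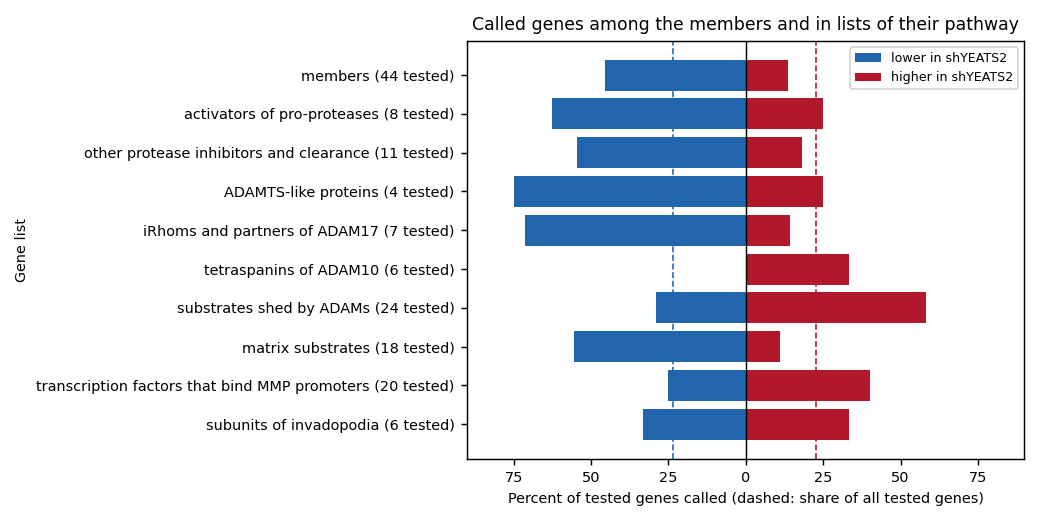
Percent of tested genes called lower (left, blue) and higher (right, red) in shYEATS2 among the members and in 9 written lists of their pathway, with the number tested in each row. Dashed lines mark the shares of all tested genes, 23.6% lower and 22.6% higher. Matrix substrates lean to the left, 10 of 18 lower, and substrates shed by ADAMs to the right, 14 of 24 higher.

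Genes listed as markers of cell types moved beside these results, and whether cells other than BICR10 were present was not tested. Of all tested genes, 23.6% were lower and 22.6% higher. Of 13 tested fibroblast markers 10 fell and 0 rose, COL3A1, DCN and POSTN most among those past 5 CPM, and the list shares COL3A1 and DCN with the matrix substrates. Of 10 tested epithelial markers 6 fell and 3 rose. KRT5 fell by 3.78 on the log2 scale, and CLDN1 and JUP rose by 4.21 and 1.84. Endothelial markers had 6 of 8 genes below 1 CPM in every library, and of 3 tested 1 fell and 1 rose. KDR fell, from 33.8 and 35.1 CPM to 17.0 and 17.4 CPM. TEK rose, at 4 and 6 counts in shControl and 9 and 7 in shYEATS2, below 1 CPM in every library. The endothelial sum, most of it KDR, was between 36.1 and 37.0 CPM against between 19.3 and 20.4 CPM. Immune markers had 7 of 8 genes below 1 CPM, PTPRC, CD68 and ITGAM among them, with 2 of 2 tested genes lower and sums between 2.62 and 2.71 CPM against between 0.908 and 2.12 CPM. The part of these markers in the protease results was not tested. With counts thinned to the smallest library total, 19 of 35 tested members were lower and 5 higher, against 3172 and 3085 of 14200 tested genes. The calls of ADAM11, ADAM33, MMP11 and MMP25 were then lost, and ADAM15 and ADAM21 were called. Other differences that go with depth were not tested.

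**Figure D5:**
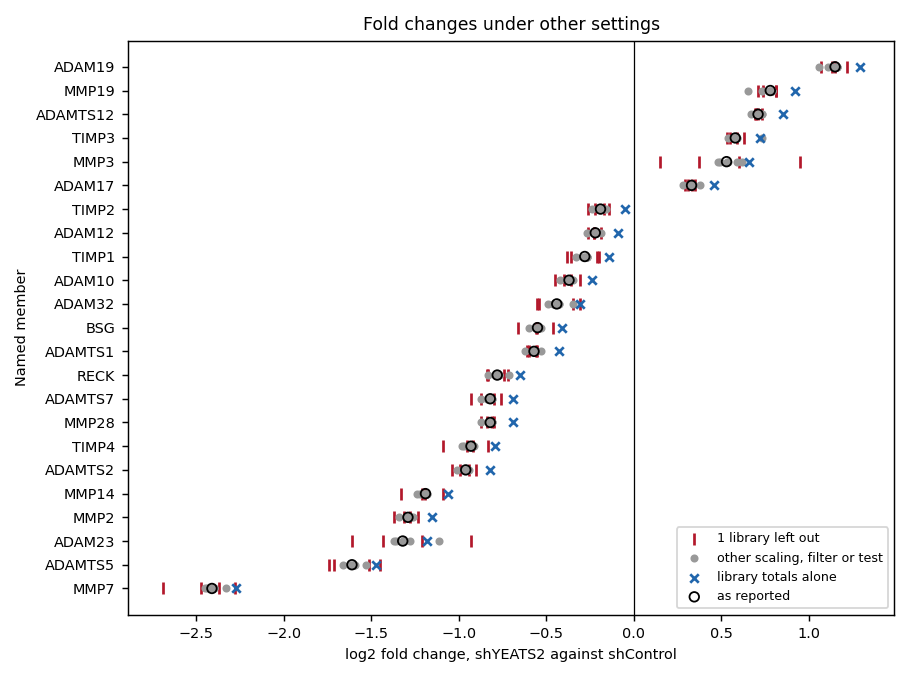
log2 fold change of each named member under other settings. Open circles are the reported values, grey points other scalings, filters and tests, blue crosses scaling by library totals alone, and red ticks fits with 1 library left out. Each member stays on its side of 0, from MMP7 at -2.41 to ADAM19 at 1.15; MMP3, not called, spreads from 0.15 to 0.95 when a library is left out.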

How the data were processed

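The authors prepared stranded mRNA libraries, sequenced read pairs of 150 bp, aligned with STAR to the GRCh38 genome and used HTSeq to count reads per gene. The deposited values are raw counts per gene. Which annotation release and strand setting were used is not given in the sources used here. Rows for reads given to no gene were left out, and they held between 15.3% and 16.5% of each library.

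After filterByExpr and TMM scaling, genes were tested in R 4.3.3 with edgeR 4.0.16 (robust glmQLFit and glmQLFTest), with Benjamini-Hochberg adjustment over 17058 genes. CPM is TMM-normalized. Exon lengths, positions and overlaps are from GENCODE release 44. The fits were also run on simulated data in which few genes were changed, unlike here, so that run is no check of the scaling. DESeq2 1.42.0, limma-voom 3.58.1, other scalings, filters, thresholds, thinned counts, a replicate block and leaving out each library were alternatives. Named members were those called, not overlapping and with a mean of at least 1 CPM, plus, whatever their values, TIMP1 to TIMP4, RECK, BSG, MMP1, MMP2, MMP3, MMP7, MMP9, MMP10, MMP13, MMP14, ADAM10, ADAM17 and ADAMTS1. From each list, the 3 called genes of largest change with at least 5 CPM were named. Members and lists were chosen with earlier results of these data known. Counting intervals were not used, and replicates differed by more than counting noise (chi-square per degree of freedom 5.95 and 5.39). The common biological coefficient of variation was 4.95%.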

Additional observations from a re-analysis of the deposited data

How the results depend on the processing

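Over the alternatives in scaling, filter, test and threshold other than a minimum fold, between 17 and 21 members were lower and 5 or 6 were higher. At the threshold of 0.05, these alternatives called from 2567 to 4338 of all genes lower and from 2393 to 5441 higher. They fitted between 14049 and 33310 genes, of which between 34 and 64 were members. In fits that left out a library, the lone library of an arm was assumed to vary like the other group. Counts of lower and higher members are therefore not given for those fits. A minimum fold of 2 left 8 lower and 2 higher. Members that passed the filter in both conditions, a count added after seeing the data and without a matching background, gave 17 and 6. Scaling by library totals alone moved the median of all genes by 0.13 on the log2 scale and turned the split of all calls from 4019 lower and 3857 higher to 2567 and 5441. The members then stood at 17 lower and 6 higher, with the calls of ADAM12 (-0.09), TIMP1 (-0.14) and TIMP2 (-0.05) lost; the cause was not tested.

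Apart from those named whatever their values, the named members were chosen because they were called, so keeping a call was partly built in. ADAM11, ADAM33, MMP11 and MMP25, called but not named members, are outside the values that follow. Their calls were lost with at least 10 counts required in every library, with DESeq2 and with thinned counts. Of 205 values of 23 named members under these alternatives, 202 kept their direction and their side of the threshold, 3 lost the call and 0 reversed. Of 92 values with a library left out, 89 did so, 3 lost the call (TIMP1, TIMP2 and ADAM12) and 0 reversed. Differences between libraries 1 and 2 of a condition had a correlation of -0.019 with those of the other condition. This cannot show whether the libraries were prepared in pairs. With a replicate block 21 members were lower and 6 higher, against 4142 and 3870 of 17058 tested genes. YEATS2 ranged from -1.23 to -1.05, and from -1.20 to -1.19 with a library left out. The MMP to TIMP ratio in shYEATS2 relative to shControl was 0.554. It was 0.503 without division by length and 0.608 without MMP2, both chosen after seeing the data, and 0.55 to 0.558 with a library left out.

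Depth limits the 27 untested members, none above 15 counts in a library. The floor of 3 counts corresponded to between 0.0661 and 0.255 CPM.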
